A study of Mus musculus with 6 samples.

Results

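Interferon-stimulated genes were examined in mouse embryonic fibroblasts (MEFs) with and without Rnf40, as a named list of 39 genes that was matched by symbol to the deposited expression table. All 39 were found among the 29955 genes of that table. In Rnf40-/- MEFs, 10 of the 35 tested (28.6%) were lower than in Rnf40+/+ MEFs and 2 (5.71%) were higher, beside 24.1% lower and 23.3% higher among all genes tested, while 23 did not pass the test and 4 had too few reads to be tested. The immunity-related GTPase Irgm1 showed the strongest change, to 23.8% of its Rnf40+/+ level. The STAT2 and IRF9 subunits of the interferon-activated transcription factor, the ubiquitin-like modifier Isg15 and the RNA-binding Ifit1 were also lower, whereas the RNA sensor Ifih1 and the Ifit1 relative Ifit3 were higher.

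RNF40 forms, with RNF20, the ubiquitin ligase that attaches a single ubiquitin to histone H2B, and the study asked how its loss changes gene expression. The MEFs came from embryos with loxP sites around exons 3 and 4 of both Rnf40 alleles and a tamoxifen-inducible Cre (Cre-ERT2) at the ubiquitously active Rosa26 locus. Rnf40-/- cultures were kept in 250 nM 4-hydroxytamoxifen for 5 days and then without it for 3 days, and all 6 libraries were labelled as passage 3. There were 3 libraries with WT in their title, called Rnf40+/+ here, and 3 with KO, called Rnf40-/- here. No interferon or virus is named in the labels, so the values are those of unstimulated cultures as far as the labels go. The sources give the treatment for the knockout only and do not say whether the Rnf40+/+ cultures received 4-hydroxytamoxifen, so the loss of Rnf40 and the drug treatment cannot be told apart. It is also not stated that replicates came from separate embryos, so the p-values measure the spread between these libraries, which may in part be technical.

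Interferons are cytokines that cells release when they detect viral or bacterial nucleic acids. Type I interferons bind the IFNAR receptor, whose kinases JAK1 and TYK2 phosphorylate STAT proteins such as STAT2, which join IRF9 in the complex ISGF3. ISGF3 binds the interferon-stimulated response element (ISRE) in promoters, while the GAS element serves the response to interferon gamma. The genes switched on in this way encode proteins that sense foreign RNA, block entry, translation or replication of viruses, and feed back on the pathway itself. Fibroblasts are a classical responder cell type, and many of these genes are transcribed at low levels without added interferon.

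The libraries held between 17053436 and 26344170 reads on genes. Rnf40 itself, whose reads were counted over the whole gene, went from 1189.5 ± 91.2 to 482 ± 39.9 normalized counts (mean ± SD, n = 3 per genotype; log2 fold change -1.30). A normalized count is a read count scaled by the size factor of its library, and 3 reads correspond to between 2.40 and 3.58 normalized counts. Beside the marker counts that follow, 24.1% of all genes tested were lower and 23.3% higher. All 10 fibroblast markers were detected and 9 of them were lower in Rnf40-/-. These 9 were at 20.8% (Col1a2) to 83.5% (Vim) of their Rnf40+/+ level, and Dcn, at 112%, did not pass the test. All 14 macrophage markers were detected too, and of 13 tested 6 were lower and 2, Ptprc and Cd14, were higher. Their summed normalized counts were 7089, 7550 and 13564 in Rnf40+/+ and 4663, 4335 and 4973 in Rnf40-/-. Lyz2 made the largest part of these sums, with 3945, 4557 and 7440 in Rnf40+/+ and 2318, 2092.5 and 2383 in Rnf40-/-. Of 8 lymphocyte markers none had enough reads for a test, and Cd3e, Cd3g and Nkg7 were at 0 in every library. Of 7 endothelial markers 5 were tested, with Pecam1, Cdh5 and Kdr higher (log2 fold changes 2.58, 3.26 and 1.56) and Emcn lower (-1.15), and their summed normalized counts were 282, 209 and 147 in Rnf40+/+ and 233.5, 333 and 248 in Rnf40-/-. Of 6 epithelial markers 3 were tested, and Cldn4 was higher (log2 fold change 1.68). The part of these cell types in the results was not tested. As these are bulk samples, fewer cells of a type and less RNA per cell cannot be told apart.

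Promoter sequences were searched for the response elements of the pathway. RefSeq promoter windows (GRCm38.p6, 250 bases before to 50 after the transcription start) were found for 30 of the 39 genes. The ISRE was searched as GAAA, any 2 bases and GAAA on both strands, and 16 of the 30 genes (53.3%) had a match, compared with 3.99% of all 27025 genes with a promoter in that table. The GAS element, searched as TTC, any 3 bases and GAA, was matched in 8 of the 30 (26.7%) and in 9.55% of all genes. The 6 sequences that follow are those of the 2 members higher by adjusted p and of the 4 lower by the study's criteria, both given below. They are written in the direction of transcription, with the ISRE matches in capitals (TTTC on both sides of the gap is the same element on the other strand), and overlapping matches run together.
Irgm1 (chr11:48871421-48871480, minus strand): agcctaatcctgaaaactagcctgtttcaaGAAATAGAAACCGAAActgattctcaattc
Isg15 (chr4:156200845-156200926, minus strand): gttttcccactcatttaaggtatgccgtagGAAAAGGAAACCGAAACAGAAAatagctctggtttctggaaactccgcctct
Ifit1 (chr19:34640755-34640843, plus strand): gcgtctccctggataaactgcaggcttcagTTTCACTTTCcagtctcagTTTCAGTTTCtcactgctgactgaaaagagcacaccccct
Igtp (chr11:58199492-58199555, plus strand): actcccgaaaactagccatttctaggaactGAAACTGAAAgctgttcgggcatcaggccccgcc
Ifit3 (chr19:34583343-34583446, plus strand): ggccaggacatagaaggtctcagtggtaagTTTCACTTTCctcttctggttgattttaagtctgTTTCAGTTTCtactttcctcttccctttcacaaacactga
Ifih1 (chr2:62646206-62646233, minus strand): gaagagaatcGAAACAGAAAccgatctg

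Irgm1 held 2 overlapping matches, Isg15 held 3, and Ifit1 and Ifit3 held 2 each, all before the transcription start. The single match of Ifih1 lay after the start, beginning at base 33 of the transcript. Of the 6 genes shown, those that moved in opposite directions thus carried the same element. The 6 were picked by 2 different thresholds. Cmpk2, the member higher by the study's criteria, had no match in its window. The same held for Irf9, Xaf1 and Samd9l, which were lower by adjusted p. Among the 14 tested members with a match, 6 were lower and 2 higher, with a median log2 fold change of -0.20. Among the 13 tested members whose window had none, 3 were lower and none higher, with a median of -0.33. Over all genes tested, 24.1% were lower and 23.3% higher, and the difference between these sets of members was not tested. A match is a description of the letters only, and binding of ISGF3 was not measured.

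The comparison of Rnf40-/- with Rnf40+/+ used limma on log2(normalized count + 1), and a gene was called higher or lower when its adjusted p was under 0.05 over all 16378 genes tested. The fold changes below are on that scale and understate the change of low genes. Of the 35 members tested, 2 (5.71%) were higher, beside 23.3% of all genes tested. Lower members numbered 10 (28.6%), which was near the 24.1% of all genes tested. The median log2 fold change was -0.25 over the tested members and 0.00 (-0.0035) over all genes tested. The study's own criteria were a mean above 15, an unadjusted p under 0.05 and a log2 fold change beyond 1. Here they were applied to the limma fit, not to the study's DESeq analysis, so the genes that pass may differ. By these criteria 4 members were lower and 1 was higher. They were met by 5.7% and 4.25% of all genes tested in the same directions. Of the 12 called members, Irf9, Stat2, Ifih1, Ifit1, Ifit3, Irgm1 and Isg15 kept their call in each of the 16 alternative fits. Among those that kept it, a required log2 fold change beyond 0.5 leaves out Stat2 and Ifit3. Ifitm3, Igtp, Rtp4, Xaf1 and Samd9l lost their call in at least 1 fit. The fit with DESeq2 size factors used the same factors as the main fit, so it could not differ from it.

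**Figure D1:**
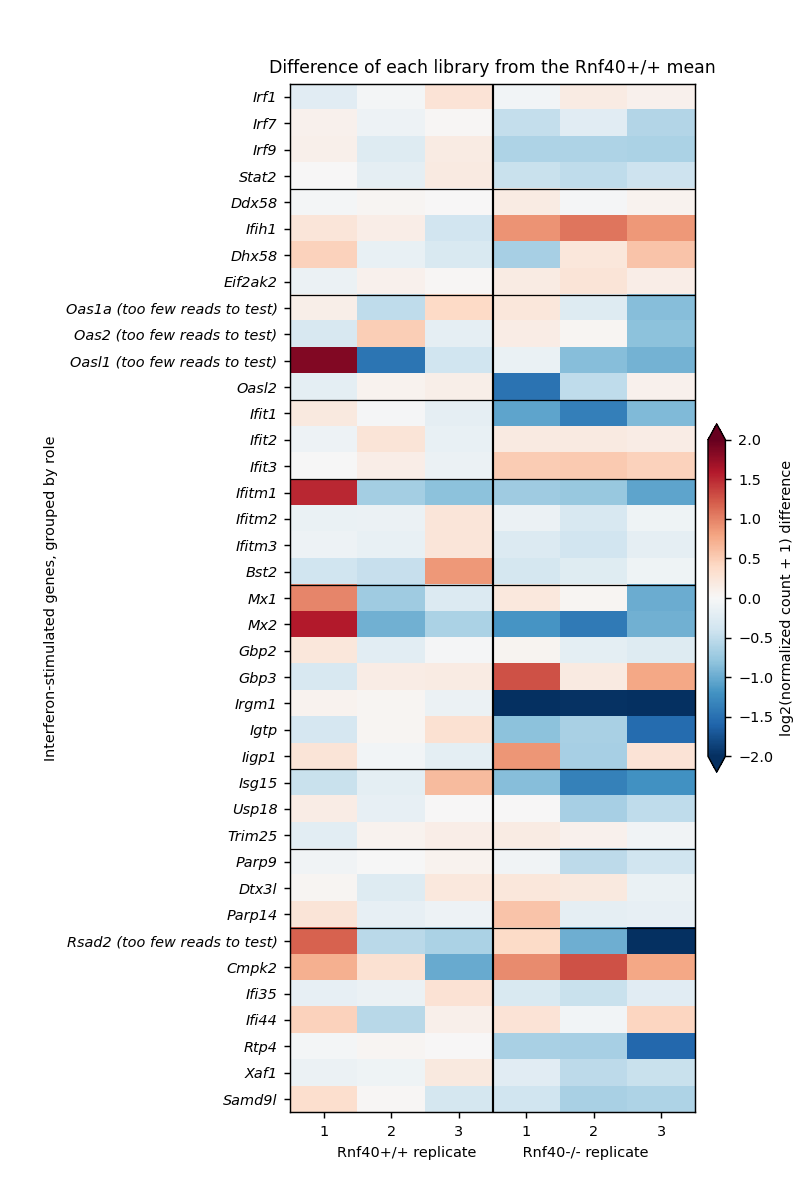
Each row is 1 of the 39 interferon-stimulated genes, grouped by role with lines between groups, and each column 1 library; the colour gives the difference of log2(normalized count + 1) from the Rnf40+/+ mean, limited to 2 in both directions. Irgm1 is deep blue in all 3 Rnf40-/- libraries, Ifih1 and Ifit3 are red there, and Oasl1, Ifitm1 and Mx2 are red in Rnf40+/+ replicate 1.

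The transcription factors of the response came first in the order of the pathway. Irf9, the DNA-binding subunit of ISGF3 (mm9, chr14:56222408-56228867), had 489.6, 381 and 512 normalized counts in Rnf40+/+ and 299, 299 and 295 in Rnf40-/-. The Rnf40-/- libraries were nearly alike and all below the lowest Rnf40+/+ library (log2 fold change -0.62, SE 0.12, adjusted p = 0.000992, limma). The annotated Irf9 gene overlaps Rnf31 on the same strand, and 2.54% of its 50-base stretches also occur there. Stat2, which gives ISGF3 its activation domain (mm9, chr10:127707629-127729905), fell from 602.5 ± 74.8 to 436 ± 13.8 (log2 fold change -0.46, SE 0.10, adjusted p = 0.00263, limma). Its lowest Rnf40+/+ library had 529 normalized counts and its highest Rnf40-/- library 448, so the genotypes did not overlap. Irf1, a factor induced mainly by interferon gamma, had 276 ± 50.9 normalized counts in Rnf40+/+ and 286 ± 21.1 in Rnf40-/-. Irf7, the amplifier of type I interferon genes, had 72, 62 and 68 rounded normalized counts in Rnf40+/+ and 48, 57 and 44 in Rnf40-/-. All 3 Rnf40-/- libraries were below the Rnf40+/+ ones for Irf7, but the difference did not pass the test (log2 fold change -0.43, 95% confidence interval -0.87 to 0.01, adjusted p = 0.102, limma).

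Of the 4 cytosolic RNA sensors, 1 was higher (23.3% of all genes tested were higher) and 3 did not pass the test. Ifih1 encodes MDA5, which detects long double-stranded RNA (mm9, chr2:62433850-62484312). It had 161, 149 and 104 normalized counts in Rnf40+/+ and 253, 285 and 248 in Rnf40-/-, so that every Rnf40-/- library was above every Rnf40+/+ library. The log2 fold change of Ifih1 was 0.94 (SE 0.16, adjusted p = 0.000578, limma). Ddx58, which encodes RIG-I, was at 666 ± 16.3 and 700.2 ± 42.4, with a log2 fold change of 0.07 (95% confidence interval -0.10 to 0.24). Dhx58, which encodes LGP2, spread from 26.4 to 45.4 in Rnf40+/+ and from 20.4 to 49.1 in Rnf40-/-, so that the genotypes overlapped. Eif2ak2 encodes the kinase PKR, which halts translation on sensing double-stranded RNA. It had 850.3, 975 and 937 normalized counts in Rnf40+/+ and 1033, 1094 and 1009 in Rnf40-/-, a small difference that did not pass the test (log2 fold change 0.18, SE 0.08, adjusted p = 0.0678, limma).

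The IFIT proteins bind viral RNA and block its translation, and their genes lie side by side on chromosome 19. Ifit1 (mm9, chr19:34715361-34724499) had 78.8, 67.3 and 60.7 normalized counts in Rnf40+/+ and 32.6, 26.1 and 36.8 in Rnf40-/-. The genotypes were well separated for Ifit1, with 46.2% of the level left (log2 fold change -1.10, SE 0.23, adjusted p = 0.00212, limma). Ifit3 (mm9, chr19:34658021-34663221) went the other way, with 271, 298 and 251 in Rnf40+/+ against 386, 392 and 374 in Rnf40-/-. The rise of Ifit3 was 1.41-fold (log2 fold change 0.49, SE 0.10, adjusted p = 0.00184, limma). Ifit2 had 464 ± 76.3 and 517 ± 7.94 normalized counts, with overlapping genotypes and a log2 fold change of 0.17 (95% confidence interval -0.07 to 0.41).

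The value of Ifit3 is uncertain in 1 respect. Of its 50-base stretches, 51.5% also occur in the neighbouring gene I830012O16Rik, and how reads shared by both were counted is not stated. I830012O16Rik was higher as well, at 144.5, 209 and 172 normalized counts in Rnf40+/+ and 232, 242 and 220.0 in Rnf40-/- (log2 fold change 0.41, adjusted p = 0.0333, limma). Ifit1 shares 7.13% of its stretches with 2010002M12Rik and Gm14446. Both of these were higher in Rnf40-/-, 2010002M12Rik from 7.2 ± 4.47 to 26.3 ± 6.86 (log2 fold change 1.89, adjusted p = 0.00833, limma) and Gm14446 from 21.2 ± 7.2 to 48.5 ± 12.7 (log2 fold change 1.17, adjusted p = 0.0103, limma). Ifit1 was therefore lower while the genes that share sequence with it were higher. These 3 genes were looked up for their shared sequence and are not members of the list.

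**Figure D2:**
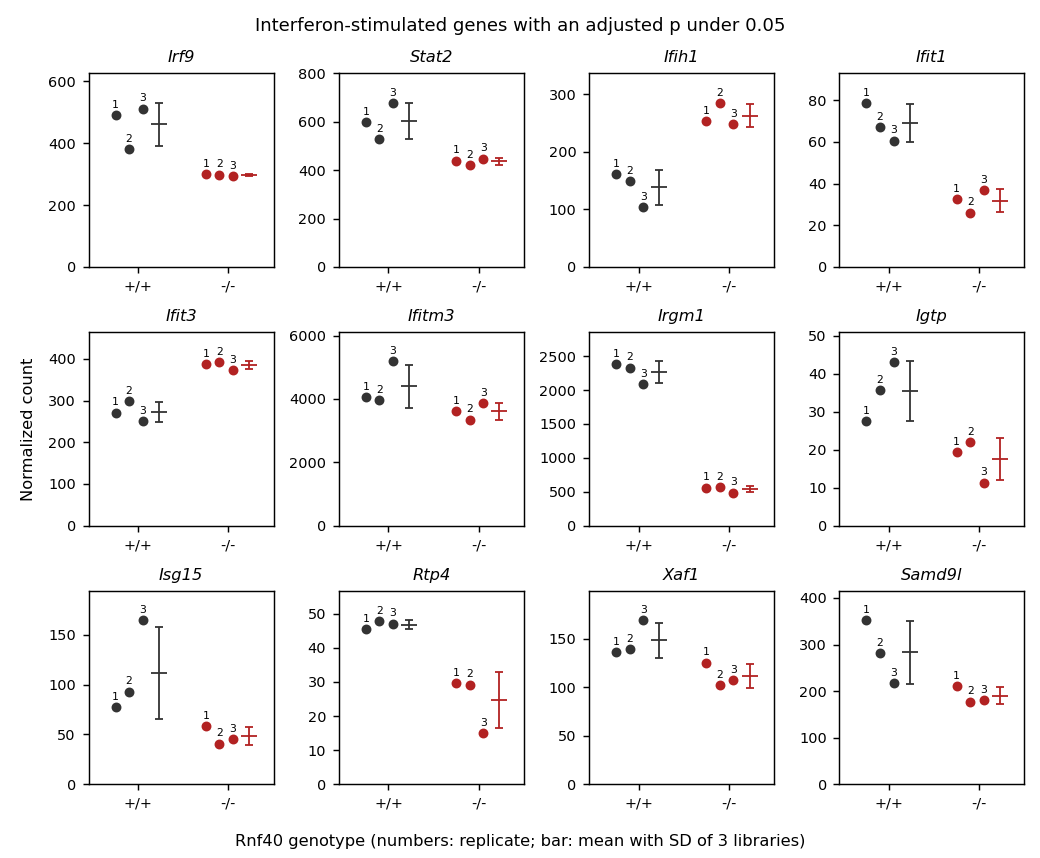
Normalized counts of the 12 called members in each library (dots, numbered by replicate; black Rnf40+/+, red Rnf40-/-), with the mean and SD of 3 libraries beside them; every axis starts at 0. Ifih1 and Ifit3 are higher in Rnf40-/-, the other 10 are lower, and for Isg15 Rnf40+/+ replicate 3, at 164.5, lies above the other two.

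The interferon-inducible GTPases held the strongest change of the list. Irgm1, which is needed for autophagy-linked defence against intracellular bacteria (mm9, chr11:48675470-48685185), had 2381, 2331 and 2089.9 normalized counts in Rnf40+/+ and 561, 572 and 488 in Rnf40-/-. The replicates of each genotype were close, and the difference was many times their spread (log2 fold change -2.07, SE 0.08, adjusted p = 8.9e-09, limma). None of the 50-base stretches of Irgm1 occur in the annotated protein-coding transcripts of another gene. Igtp encodes the related GTPase IRGM3 (mm9, chr11:58013058-58021093). It had 27.5, 35.7 and 43.1 normalized counts in Rnf40+/+ and 19.4, 21.9 and 11.3 in Rnf40-/- (log2 fold change -1.0, SE 0.33, adjusted p = 0.0272, limma). The genotypes did not overlap for Igtp, but the call was lost without Rnf40+/+ replicate 2 or 3 and without Rnf40-/- replicate 3, where the log2 fold change was between -0.98 and -0.73. Igtp shares 10.1% of its stretches with Irgm2, which had 77.5 ± 16.5 and 54.1 ± 12.5 normalized counts and did not pass the test.

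The other GTPases did not pass the test. Iigp1, also of the immunity-related family, had 14 ± 2.45 and 17.3 ± 9.08 normalized counts. The guanylate-binding proteins attack the vacuoles of intracellular pathogens, and of these Gbp2 had 116 ± 17.7 and 105 ± 12.3. Gbp3 had 20.3, 28.6 and 28.7 in Rnf40+/+ and 63.2, 29.2 and 44.4 in Rnf40-/- (log2 fold change 0.74, SE 0.32, adjusted p = 0.0707, limma). Its highest Rnf40+/+ and lowest Rnf40-/- libraries were almost equal. The Mx proteins trap viral nucleocapsids. Mx1 had 54.9, 16.3 and 22.4 normalized counts in Rnf40+/+ and 31.6, 28.2 and 13.2 in Rnf40-/-. Mx2 had 82.4, 13.3 and 16.8 in Rnf40+/+ and 11.2, 9.39 and 13.2 in Rnf40-/-. For both Mx genes the first Rnf40+/+ library was far above the other two, and the log2 fold changes went from -0.25 to 0.24 for Mx1 and from -1.18 to -0.39 for Mx2 without it.

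Membrane proteins that block virus entry or release included the most abundant members. Divided by the length of the longest annotated transcript, the Rnf40+/+ level of Ifitm3 was 6486 ± 1007 normalized counts per kb, followed by Ifitm2 with 6239 ± 959, which did not differ from Ifitm3 beyond this spread. Irgm1 came next with 1004 ± 69 per kb and Bst2 with 965 ± 544, again within the spread of each other. The lowest mean levels per length were those of Oasl1 with 3.56 ± 4.53 and Oas2 with 2.39 ± 0.83 per kb. The SD of Oasl1, which had 16, 1 and 4 reads in Rnf40+/+, exceeded its mean, so its place among the low members is not settled. In Rnf40-/-, the level per length of Irgm1 was 239 and that of Eif2ak2 242, so Irgm1 was the fifth of the list there.

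Ifitm3, which stops viruses in endosomes (mm9, chr7:148195485-148196669), had 4051, 3958 and 5184 normalized counts in Rnf40+/+ and 3607, 3349 and 3863 in Rnf40-/-. The genotypes did not overlap, but the change was small (log2 fold change -0.28, SE 0.10, adjusted p = 0.0349, limma), and the call was lost with upper-quartile factors, without Rnf40+/+ replicate 3, where the log2 fold change was -0.15, and without Rnf40-/- replicate 1 or 2. Ifitm3 shares 10% of its stretches with other genes, among them Gm7676, Ifitm2 and Ifitm1. The share was 11.1% for Ifitm2 (with Gm5331 and Ifitm3) and 6.36% for Ifitm1 (with Gm7676 and Ifitm3). Ifitm2 had 4062 ± 624 and 3579 ± 302, with overlapping genotypes. Ifitm1 had 659, 145 and 130.2 normalized counts in Rnf40+/+ and 142, 137 and 111 in Rnf40-/-. Rnf40+/+ replicate 1 was 4.79 times the mean of the other 2 libraries for Ifitm1, and the log2 fold change of -0.84 (adjusted p = 0.154, limma) became -0.09 without it. Bst2 encodes tetherin, which holds budding virions at the cell surface. It had 508, 487 and 1217 normalized counts in Rnf40+/+ and 525, 567 and 632 in Rnf40-/-. Here Rnf40+/+ replicate 3 was the high one, the same library in which the macrophage markers summed to 13564, and without it the log2 fold change of Bst2 went from -0.23 to 0.20. The part of macrophage RNA in this value was not tested.

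**Figure D3:**
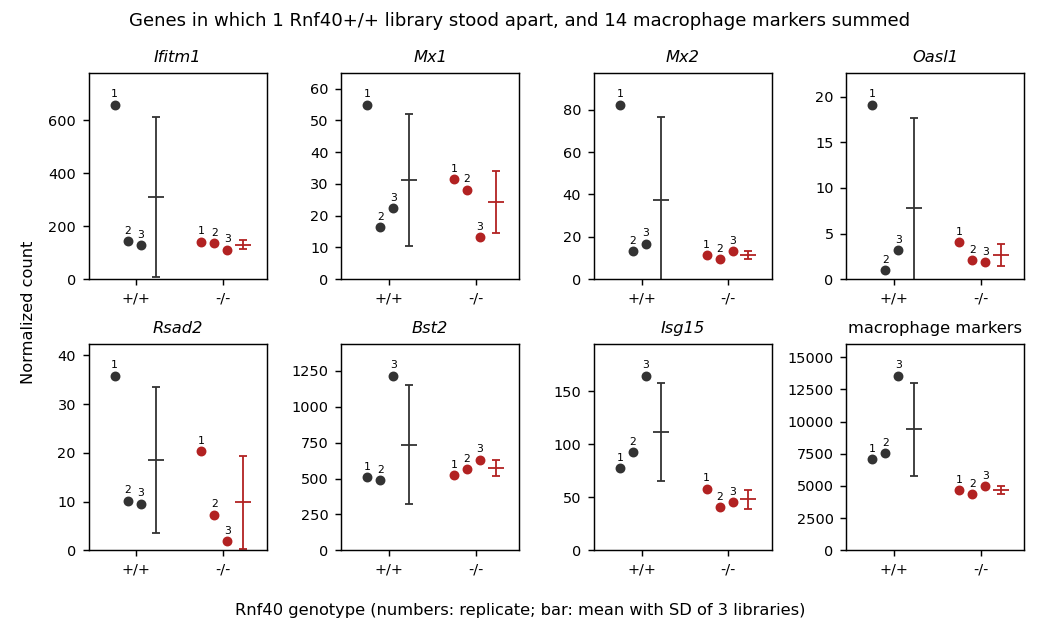
Normalized counts in each library (dots, numbered by replicate, with mean and SD of 3 libraries) for 7 members in which 1 Rnf40+/+ library was high, and for the sum of 14 macrophage markers. Every axis starts at 0. The 7 were picked without a fixed limit, and Cmpk2, at 1.99 times the mean of the other 2 libraries in Rnf40+/+ replicate 1, is not shown. Ifitm1, Mx1, Mx2, Oasl1 and Rsad2 are highest in Rnf40+/+ replicate 1, whereas Bst2, Isg15 and the macrophage sum are highest in Rnf40+/+ replicate 3. Lyz2 makes the largest part of that sum, and not every marker follows it. Of the Rnf40+/+ libraries, Itgam is highest in replicate 1 and Cd14 in replicate 2.

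Isg15 encodes a ubiquitin-like protein that is attached to newly made proteins during the interferon response (mm9, chr4:155573533-155574927). It had 77.6, 92.8 and 164.5 normalized counts in Rnf40+/+ and 58.1, 40.7 and 45.3 in Rnf40-/-. Every Rnf40-/- library was lower than every Rnf40+/+ library (log2 fold change -1.14, SE 0.27, adjusted p = 0.00432, limma). Rnf40+/+ replicate 3 was 1.93 times the mean of the other 2. Without that library the log2 fold change was -0.82 (adjusted p = 0.0121, limma). The macrophage markers, of which Lyz2 had the most counts, summed to 7089 and 7550 in the other Rnf40+/+ libraries. These sums were also above Rnf40-/-, but single markers differed. Of 13 tested, 6 were lower in Rnf40-/-, 2 (Ptprc and Cd14) were higher and 5 did not pass, beside 24.1% lower and 23.3% higher among all genes tested. The part of macrophage RNA in the Isg15 result was not tested. Usp18, which removes ISG15 and dampens receptor signalling, had 57.3 ± 6.16 and 44.1 ± 11.5. Trim25, a ubiquitin ligase that activates RIG-I, had 884 ± 111 and 919.8 ± 71.7, and neither passed the test. Parp9 and Dtx3l form a complex with ADP-ribosyltransferase and ubiquitin ligase activity, and their annotated genes overlap on opposite strands. Parp9 had 226 ± 11 and 182 ± 30.7 (log2 fold change -0.33, adjusted p = 0.0711, limma), Dtx3l 119 ± 19 and 127 ± 16.8, and the macrodomain protein Parp14 had 80.4 ± 13.2 and 86.3 ± 27.7 normalized counts.

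The oligoadenylate synthetases, which activate RNase L on sensing double-stranded RNA, were barely expressed. Oas1a had 7.95 ± 2.67 and 6.41 ± 2.7 normalized counts and shares 57.1% of its stretches with Oas1g and Oas1b. Oas2 had 9.47 ± 3.31 and 8.1 ± 2.96. Oasl1, which restrains Irf7 translation, had 19.1, 1.02 and 3.19 in Rnf40+/+ and 4.08, 2.09 and 1.89 in Rnf40-/-, so that all libraries but the first were near the value of 3 reads. The deposited values also hold a second entry spelled oasl1, which was not matched to the list. It had 2.39, 0 and 6.39 normalized counts in Rnf40+/+ and 3.06, 2.09 and 0 in Rnf40-/-, so its highest library was Rnf40+/+ replicate 3. Oas1a, Oas2, Oasl1 and Rsad2 were not tested. Oasl2 was the only one of the 4 members of this family with enough reads, with 26.3, 31.6 and 32.7 normalized counts in Rnf40+/+ and 10.2, 20.9 and 32.1 in Rnf40-/- (log2 fold change -0.63, SE 0.39, adjusted p = 0.204, limma). Its Rnf40-/- libraries covered a wide range and overlapped with Rnf40+/+.

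Among the remaining effectors, Rtp4, Samd9l and Xaf1 were lower of 6 tested (24.1% of all genes tested were lower), and each of these calls was lost in at least 1 alternative fit. Rtp4, a transmembrane protein that limits flavivirus replication (mm9, chr16:23610005-23614308), had 45.4, 47.9 and 47.1 normalized counts in Rnf40+/+ and 29.6, 29.2 and 15.1 in Rnf40-/-. The Rnf40+/+ libraries were tight and all above the Rnf40-/- libraries (log2 fold change -0.96, SE 0.30, adjusted p = 0.0194, limma), although the call was lost without Rnf40+/+ replicate 2 or Rnf40-/- replicate 3. Samd9l, an antiviral factor that shuts down translation (mm9, chr6:3322257-3349571), fell from 284 ± 67.6 to 189.9 ± 18.4 (log2 fold change -0.55, SE 0.16, adjusted p = 0.0151, limma). Without Rnf40+/+ replicate 1, its highest library, the log2 fold change of Samd9l was -0.38 (adjusted p = 0.0602, limma), and the call was also lost without Rnf40+/+ replicate 2, Rnf40-/- replicate 2 or Rnf40-/- replicate 3. Xaf1, a partner and antagonist of the apoptosis inhibitor XIAP (mm9, chr11:72115131-72127235), went from 148 ± 18.2 to 112 ± 12.1 (log2 fold change -0.40, SE 0.16, adjusted p = 0.0491, limma). Xaf1 was at the edge of the threshold and lost its call in 11 of the 16 alternative fits.

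The other effectors did not pass. Cmpk2, a mitochondrial nucleotide kinase, had 17.9, 13.3 and 4.79 normalized counts in Rnf40+/+ and 21.4, 27.1 and 18.9 in Rnf40-/-. In the limma fit Cmpk2 was the single member that met the study's criteria for higher genes (log2 fold change 1.00, SE 0.46), but its adjusted p was 0.0902 (limma). With the edgeR and DESeq2 tests it did not meet them. Rsad2, which encodes the antiviral enzyme viperin, had 35.8, 10.2 and 9.58 in Rnf40+/+ and 20.4, 7.31 and 1.89 in Rnf40-/-, with the first library of each genotype the highest. Ifi35 had 237 ± 42.9 and 187 ± 13.7 (log2 fold change -0.33, adjusted p = 0.0802, limma), and Ifi44 had 35 ± 12.1 and 39.5 ± 6.58.

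**Figure D4:**
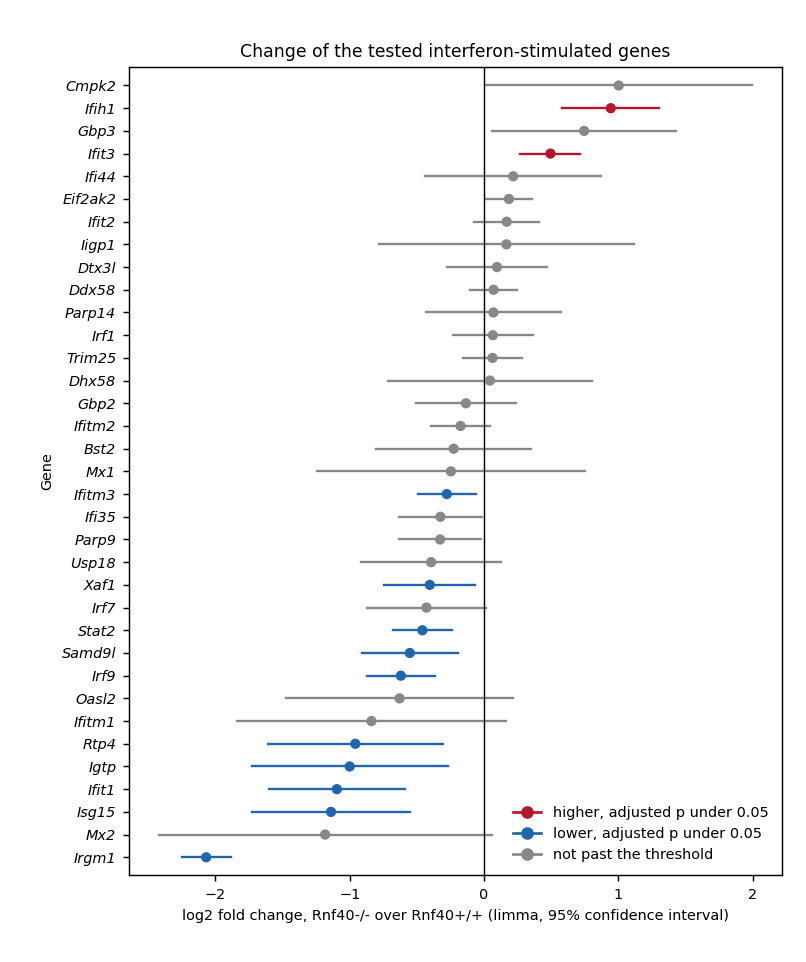
Log2 fold change of Rnf40-/- over Rnf40+/+ for the 35 tested members, ordered by size, with the 95% confidence interval of limma (blue lower and red higher with an adjusted p under 0.05, grey not past the threshold). Irgm1 at -2.07 stands apart with a narrow interval, while the intervals of Mx2, Ifitm1 and Mx1 are wide.

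Library by library, the median difference of the tested members from the Rnf40+/+ mean was -0.12, -0.32 and -0.18 on the log2 scale in the 3 Rnf40-/- libraries and between -0.08 and 0.02 in the Rnf40+/+ libraries. Over all genes tested, the same medians lay between -0.01 and 0.01. The 5 members with the greatest excess in Rnf40+/+ replicate 1 over the other 2 Rnf40+/+ libraries were Oasl1 (9.07 times), Mx2 (5.49), Ifitm1 (4.79), Rsad2 (3.62) and Mx1 (2.84). Without that library, 10 of 36 tested members were lower and 3 were higher, beside 3841 lower and 3714 higher of 16858 genes tested. Without Rnf40+/+ replicate 3, 9 of 37 were lower and 2 higher, beside 3896 lower and 3817 higher of 16712.

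The genes that produce and transmit the interferon signal were taken from a list of 45, all of which were in the table. Of the 34 tested, 8 were higher (23.5%) and 6 lower (17.6%), so that the share of higher genes was close to the 23.3% of all genes tested and that of lower genes stood beside 24.1%. Among the ligands, Ifnb1 had 2 reads in Rnf40+/+ replicate 1 and none elsewhere. No read was counted in any library for Ifna1, Ifna2, Ifna4, Ifna5, Ifne, Ifng, Ifnl2 or Ifnl3, while Ifnk, an epithelial type I interferon, had 28.1 ± 18.4 and 33.1 ± 7.6 normalized counts. Of the receptors, Ifnar1 rose from 2307 ± 63.2 to 3354 ± 145 (log2 fold change 0.54, adjusted p = 2.58e-05, limma), but its partner chain Ifnar2 had 969 ± 109 and 987 ± 9.86 and did not pass. The interferon gamma receptor chain Ifngr2 was lower (log2 fold change -0.25, adjusted p = 0.00505, limma), as was Il10rb, a shared chain of the interferon lambda receptor (log2 fold change -0.41, adjusted p = 0.00272, limma). Ifngr1 (log2 fold change -0.13) and Ifnlr1 (-0.24) did not pass.

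Downstream of the receptors, Jak1 rose from 4525 ± 350.1 to 8321 ± 153 normalized counts (log2 fold change 0.88, SE 0.07, adjusted p = 1.07e-06, limma), while Tyk2 had 541 ± 44.4 and 614 ± 27.6 and did not pass (adjusted p = 0.106, limma). Of the brakes on the pathway, Socs1, which inhibits JAK kinases, went from 117 ± 14 to 40.9 ± 13.9 (log2 fold change -1.54, SE 0.25, adjusted p = 0.000308, limma), and Pias1, an inhibitor of STAT signalling, was higher (log2 fold change 0.70, adjusted p = 4.64e-05, limma). The endosomal RNA receptor Tlr3 was higher too, from 92.7 ± 13.9 to 153 ± 28.5 (log2 fold change 0.71, adjusted p = 0.00651, limma).

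A further list of 61 interferon-induced genes that are not among the members was examined in the same fit. Of these, 57 were in the table and 49 were tested. Of the tested genes, 16 were higher (32.7%) and 4 lower (8.16%), beside 23.3% higher and 24.1% lower among all genes tested. The median log2 fold change of this list was 0.21. The same median was -0.25 over the members, and the difference between the lists was not tested. The 5 changed genes with the largest effect were all higher. They were the scramblase family gene Plscr2 (94 ± 13.5 to 235 ± 22.1, log2 fold change 1.32), the schlafen gene Slfn5 (107.5 ± 16.1 to 254 ± 17, 1.24), Oas1c (16.5 ± 5.09 to 34.6 ± 8.06, 1.05), the p200 family gene Ifi203 (59.1 ± 19.8 to 113 ± 20.3, 0.97) and the immunity-related GTPase Ifi47 (143 ± 12.8 to 273 ± 19.6, 0.92). Their adjusted p-values in limma were between 2.37e-05 and 0.0241, and Oas1c lost its call without Rnf40+/+ replicate 1, Rnf40-/- replicate 1 or Rnf40-/- replicate 2. The lower genes were Ube2l6, the conjugating enzyme of ISG15 (log2 fold change -0.77, adjusted p = 0.000552, limma), Ifi204, Mnda and Trim12c. The other ISG15 conjugation genes of the list, Uba7 (log2 fold change -0.20) and Herc6 (0.33), did not pass the test.

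**Figure D5:**
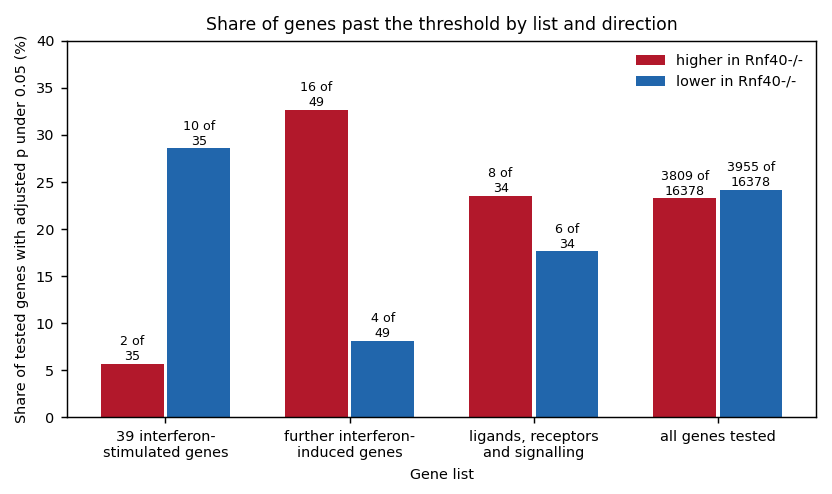
Share of tested genes that were higher (red) or lower (blue) in Rnf40-/- with an adjusted p under 0.05, for the 39 members, the further interferon-induced genes, the ligands, receptors and signalling genes, and all genes tested; the counts stand on the bars. The members have 5.71% higher and 28.6% lower, the further list 32.7% and 8.16%, and all genes 23.3% and 24.1%.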

How the data were processed

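RNA was measured by directional RNA-seq in 3 Rnf40+/+ and 3 Rnf40-/- MEF libraries. The authors mapped reads to the mm9 transcriptome and normalized with DESeq, and the submitters' processing notes name Bowtie2 (2.1.0) and DESeq (1.14.0). The deposited signal is a normalized count per gene, and 100% of the values were whole reads (tolerance 0.01) after division by the value of 1 read. Whether counting used the strand, and how reads shared between genes were assigned, is not given in the sources used here.

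Genes were kept by filterByExpr of edgeR (4.0.16) on the recovered reads and tested two-sided with limma (3.58.1; lmFit, eBayes with trend) on log2(normalized count + 1), with no term besides genotype, and p-values were adjusted by Benjamini-Hochberg over 16378 genes. An exact permutation test of 3 against 3 cannot go below 0.1 and was not used. The tests were first tried on simulated data. Libraries of a genotype differed by more than sampling noise, so each counted as 1 replicate.

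The members and lists were chosen with earlier results of these data known. All 39 members are accounted for, and from each other list up to 5 genes with the largest change among those with an adjusted p under 0.05 and a mean above 15, and the receptors, ligands, Jak1 and Tyk2, are named. A gene that the rule names is not reported here. Positions of genes are from the mm9 annotation, and promoters from RefSeq (GRCm38.p6). Alternatives were TMM, DESeq2 and upper-quartile factors, edgeR quasi-likelihood and DESeq2 (1.42.0) tests, other filters and pseudocounts, a fold limit, a replicate block and each library left out. The DESeq2 factors equalled the deposited ones, so that fit repeated the main one. R (4.3.3) and Python (3.11.15) were used.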

Additional observations from a re-analysis of the deposited data

How the results depend on the processing

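The 16 alternative fits were read for the 35 tested members and 18 pathway genes, and no called gene among these changed direction, and under the scaling alternatives the median log2 fold change of all genes went from -0.0035 to at most 0.044. The count of higher members (2) fell to 1 and that of lower members (10) to 7 when a log2 fold change beyond 0.5 was required, which leaves out Ifit3, Stat2, Xaf1 and Ifitm3. For this limit, and for the study's criteria in the alternatives below, the share of all genes was not counted. The count of higher members lay between 2 and 4 when 1 library was left out. The count of lower members lay between 6 and 10 then, with 6 both without Rnf40+/+ replicate 2 and without Rnf40-/- replicate 3. In these fits 36 or 37 members were tested. Of the 16611 to 16858 genes tested in all, between 3051 and 3817 were higher and between 3342 and 3896 lower. The 1 member higher by the study's criteria was lost (0) with edgeR, with DESeq2, with no gene filter, with at least 10 reads in every library and with pseudocounts of 0.1 and 10, and this count lay between 0 and 2 over the left-out libraries. The 4 members lower by those criteria became 2 with a pseudocount of 10 and 6 with edgeR, and lay between 3 and 5 over the left-out libraries. The median log2 fold change of the members (-0.25) was -0.31 with edgeR and -0.31 with DESeq2, and between -0.37 and -0.18 over the left-out libraries. The cause of these shifts was not tested.

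Members and pathway genes that were not called changed sign when single libraries were left out. The log2 fold change ranged from -0.052 to 0.21 for Irf1, -0.22 to 0.40 for Dhx58, -0.46 to 0.20 for Bst2, -0.60 to 0.24 for Mx1, -0.20 to 0.58 for Iigp1, -0.044 to 0.13 for Trim25, -0.031 to 0.21 for Dtx3l, -0.18 to 0.20 for Parp14, -0.063 to 0.45 for Ifi44, -0.16 to 0.92 for Ifnk, -0.059 to 0.10 for Ifnar2 and -0.50 to 0.15 for Il28ra (Ifnlr1).

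The deviations of same-numbered libraries correlated at 0.012, 0.017 and 0.021, so no pairing by replicate number was seen. With 3 libraries per genotype, these correlations cannot decide whether same-numbered libraries shared a batch. With a replicate block, 2 members were higher and 11 lower, and 4021 genes were higher and 4196 lower in all. The members that the block moved across the threshold were Ifitm1, Mx2 and Xaf1, of which the last was no longer called. Oas1a, Oas2, Oasl1 and Rsad2 had too few reads for the gene filter, and without the filter they were not called either.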
